A study of Mus musculus with 2 samples.

Results

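The cells described here were myeloid cells of the newborn mouse lung that held transcripts of Ccr2, Ly6c2 or Plac8 and almost none of the complement C1q genes. They were chosen from their own transcripts, counted as unique molecular identifiers (UMIs, one per captured RNA molecule). A cell was a member if at most 10% of its UMIs were mitochondrial, it had at least 2 UMIs over Tyrobp, Fcer1g, Laptm5, Ptprc and Spi1, and at least 2 over Ccr2, Ly6c2 and Plac8. It also had under 3 UMIs over C1qa, C1qb and C1qc, under 50 UMIs of S100a8 and S100a9 per 10000, and under 2 UMIs of a B cell sum (Cd79a, Cd79b, Ighm, Ms4a1) and of a T and NK cell sum (Cd3d, Cd3e, Cd3g, Cd7, Gzma, Nkg7, Ccl5). Of 8003 cells under the mitochondrial limit, 136 were members, or 1.70% (95% Wilson interval 1.44 to 2.01%, which covers counting error only). Batch 1 held 46 of 2388 cells (1.93%, 1.45 to 2.56%) and Batch 2 held 90 of 5615 (1.60%, 1.31 to 1.97%). The members were 19.4% of the 703 cells that an immune gate took and 23.6% of the 577 myeloid ones.

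Monocytes are made in the fetal liver and bone marrow and travel in blood. The classical kind carries the chemokine receptor Ccr2, which lets it leave the marrow and enter tissue, and the surface protein Ly6C, encoded by Ly6c2. In the lung around birth, fetal monocytes enter the tissue and become macrophages, which lose Ccr2 and Ly6c2 and take on C1q, scavenger receptors and lysosomal enzymes. Neutrophils, the other abundant phagocyte of blood, share many transcripts with monocytes but are filled with S100a8, S100a9 and granule proteins.

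The study profiled whole lung from wild-type C57BL/6J mice at postnatal day 1 by Drop-seq, a droplet method that reads the 3′ ends of RNA. Each of the 2 batches came from 1 female mouse, and no animal was treated, so batch and animal cannot be told apart. Red cells were lysed, no sort was applied, and blood cells were not separated from those of the tissue.

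Batch 1 held 4432553 UMIs in the filtered cells and Batch 2 held 18232639, with median UMIs per cell of 1387 and 2014. No barcode was shared between batches. Batch 2 held 1940 of the 1941 cells over the mitochondrial limit. Levels are given as UMIs of a gene per 1000000 UMIs of its group and batch (CPM). The 5 erythroid genes Hba-a1, Hba-a2, Hbb-bs, Hbb-bt and Alas2 summed to 42906 and 5728 CPM in Batch 1 and Batch 2 members, and to 67163 and 15575 CPM in endothelial cells, which should lack them. Members had a median of 1596 UMIs in Batch 1 (784 to 5351) and 2432 in Batch 2 (741 to 16423), and a median mitochondrial share of 1.48% and 6.25%. Summed over members, the depth was 89498 and 258021 UMIs.

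Ccr2 was the rule gene that most members held, and the batches differed in the other 2. The gene lies at chr9:124101950-124113557 (mm10), Ly6c2 at chr15:75108158-75111970 and Plac8, which encodes a small cysteine-rich protein, at chr5:100553725-100572245. A UMI of Ccr2 was in 119 of the 136 members, of Plac8 in 64 and of Ly6c2 in 41. These 3 genes chose the cells, so their values are given as description with no test. Ccr2 stood at 1296 CPM in Batch 1 members and 1085 in Batch 2. Plac8 stood at 2514 and 434 CPM, and Ly6c2 at 458 and 229 CPM. Ccr2 was thus close between batches, whereas Plac8 and Ly6c2 were lower in the members of Batch 2. Plac8 was also lower in Batch 2 in neutrophil-like cells (1688 and 325 CPM) and, less so, in B cells (544 and 428 CPM).

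**Figure D1:**
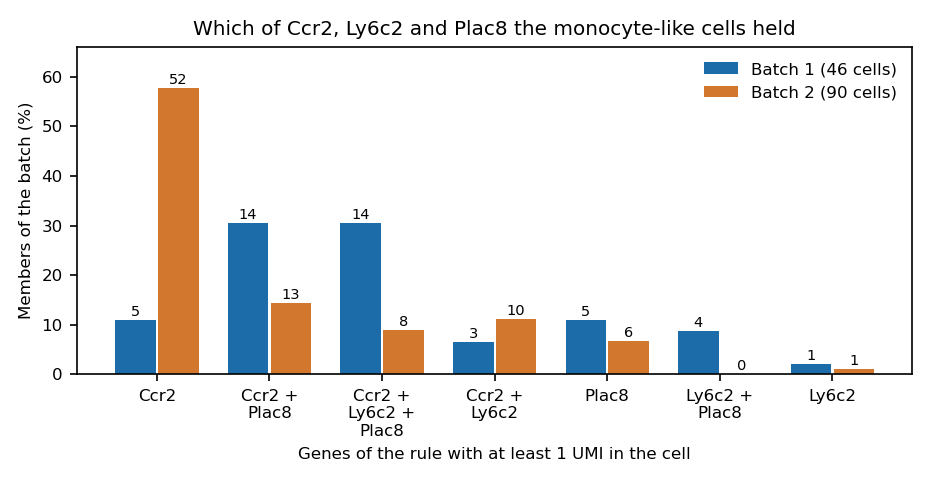
Share of monocyte-like cells (percent, bars; number of cells above each bar) with UMIs of each combination of Ccr2, Ly6c2 and Plac8, in Batch 1 (46 cells) and Batch 2 (90 cells). Cells with Ccr2 alone were 5 of 46 in Batch 1 and 52 of 90 in Batch 2.

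Members with all 3 genes numbered 14 in Batch 1 and 8 in Batch 2, and those with Ccr2 and Plac8 but no Ly6c2 numbered 14 and 13. Ccr2 was the sole rule gene in 5 members of Batch 1 (10.9%) and 52 of Batch 2 (57.8%). These Ccr2-alone cells of Batch 2 had a median of 2248 UMIs, against 2597 in the other members of that batch and 1597 in the Batch 1 members with Ly6c2 or Plac8. Among Batch 2 members with at most 5% mitochondrial UMIs, 12 of 24 had Ccr2 alone, and among those over 5%, 40 of 66.

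Close to the thresholds, 37 members had exactly 2 UMIs over the 3 rule genes, and 52 cells that otherwise passed had 1. C1q was at 0 UMIs in 127 members, 1 member had 2, and 1 cell with 3 and 9 with more were left out by that limit alone. S100a8 and S100a9 together were at 25 or more per 10000 in 15 members, while 18 otherwise passing cells stood between 50 and 100 and 50 cells at 100 or more. A total of 66 members had mitochondrial shares over 5%, and 64 otherwise passing cells were over 10%.

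Of the genes used here, Ly6c2 and Lyz2, the lysozyme of myeloid cells, each have a neighbor so alike that reads may be assigned to either. The last 150 coding bases of each pair are shown, with the bases that differ within a pair in capitals. They are from the GENCODE transcripts of mm10, all on the minus strand: Ly6c1 lies at chr15:75044018-75048830, Lyz2 at chr10:117277331-117282321 and Lyz1 at chr10:117287797-117292868.
Ly6c2: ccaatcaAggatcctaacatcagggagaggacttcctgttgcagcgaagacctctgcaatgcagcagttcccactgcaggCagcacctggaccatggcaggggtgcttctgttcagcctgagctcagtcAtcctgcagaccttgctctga
Ly6c1: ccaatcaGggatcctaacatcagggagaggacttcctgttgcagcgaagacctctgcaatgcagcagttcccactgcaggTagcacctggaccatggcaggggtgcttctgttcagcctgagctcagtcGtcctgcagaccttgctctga
Lyz2: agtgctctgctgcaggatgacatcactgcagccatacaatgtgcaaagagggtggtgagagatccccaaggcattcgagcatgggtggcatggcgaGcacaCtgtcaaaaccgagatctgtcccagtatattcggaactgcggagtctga
Lyz1: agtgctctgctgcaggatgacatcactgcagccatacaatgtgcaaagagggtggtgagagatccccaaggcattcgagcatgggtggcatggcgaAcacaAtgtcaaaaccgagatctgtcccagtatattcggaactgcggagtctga
The Ly6c pair differed at 3 of the 150 bases shown and at 9 of the 396 coding bases (97.7% identity). The lysozyme pair differed at 2 of the 150 bases and at 22 of 447 (95.1% identity). Drop-seq reads come from the 3′ end of the transcript, which includes untranslated bases after the coding end. In the last 500 bases of the transcripts, 20% of the 451 stretches of 50 bases in Ly6c2 also occurred in Ly6c1. Of those in Lyz2, 16.9% occurred in Lyz1. Values of these 4 genes are therefore less certain than others. Ly6c1 is also a gene of capillary endothelium, where it stood at 796 and 1298 CPM, with Ly6c2 at 437 and 593 CPM in the same cells, so a Ly6c2 UMI did not mark a monocyte on its own.

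The members were compared with the 79 macrophage-like cells of the same lungs (30 and 49), which met the other limits, apart from that on the 3 rule genes, but held 3 or more C1q UMIs. UMIs were summed per group and batch and tested with edgeR's quasi-likelihood test with batch as a term, over 6942 genes that no gate used. A gene was called at a Benjamini-Hochberg adjusted p under 0.05. Called genes numbered 86 (1.24%), with 40 higher in members (0.576%) and 46 lower (0.663%), and 788 had an unadjusted p under 0.05. The sums came from 2 mice, and both groups were gated on RNA of the same cells, so differences in genes that accompany the gate genes are not independent of the gates. Without the batch term 13 and 18 genes were called, and with DESeq2's size factors in place of TMM 30 and 56, where the median of all genes moved from 0.15 to 0.01.

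Several known genes of classical monocytes beyond the rule set were higher in members than in macrophage-like cells, among them Lyz2, Fn1 and Hp. Of 13 tested, 5 were called higher and 1 lower, with a median log2 fold change of 2.65, against 0.15 over all genes tested. Lyz2 stood at 10436 CPM in Batch 1 members and 2945 in Batch 2, and at 4518 and 1374 in macrophage-like cells. In each batch members were above the macrophages, though the batches lay further apart than the groups (log2 fold change 1.33 ± 0.295 SE, edgeR adjusted p = 0.0138). Lyz2 UMIs were in 89.1% of Batch 1 members (Wilson 77.0 to 95.3%) and 90.0% of Batch 2 members (82.1 to 94.7%), against 4.78% and 5.05% of endothelial cells, which should lack the gene and whose median depths were 1436 and 2214 UMIs. After each cell was thinned to 600 UMIs these shares were 87.0% and 73.3% in members and 2.10% and 1.44% in endothelium.

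Genes of secreted proteins and of a redox enzyme followed. Fn1, fibronectin, was at 391 and 388 CPM in members and 127 and 35.7 in macrophage-like cells (log2 fold change 2.77 ± 0.52, edgeR adjusted p = 0.00275). Gsr, glutathione reductase, was at 514 and 574 CPM in members and 127 and 80.3 in macrophages (2.65 ± 0.46, edgeR adjusted p = 0.00112). Both genes were even between the batches' members and higher than in either macrophage sum. Hp, haptoglobin, was at 458 and 256 CPM in members and at 0 and 71.4 in macrophages (3.45 ± 0.77, edgeR adjusted p = 0.0138). Vcan, the proteoglycan versican, had 38 UMIs in members and 1 in macrophages, a ratio of depth-scaled levels of 17.4 (exact 95% interval 2.94 to 706, edgeR adjusted p = 0.0427, 0.0711 with size factors). F13a1, coagulation factor XIII A, moved the other way, at 224 and 236 CPM in members and 764 and 1097 in macrophages (-1.89 ± 0.40, edgeR adjusted p = 0.0111). Gsr alone of these 6 genes, Lyz2 included, kept its call without the batch term (adjusted p = 0.0344). Lyz1 did not pass the test, at 4391 and 1066 CPM in members and 1803 and 393 in macrophages (adjusted p = 0.0775), and neither did Ms4a4c, Mgst1, Ifitm3, Ifitm6 or Chi3l3.

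**Figure D2:**
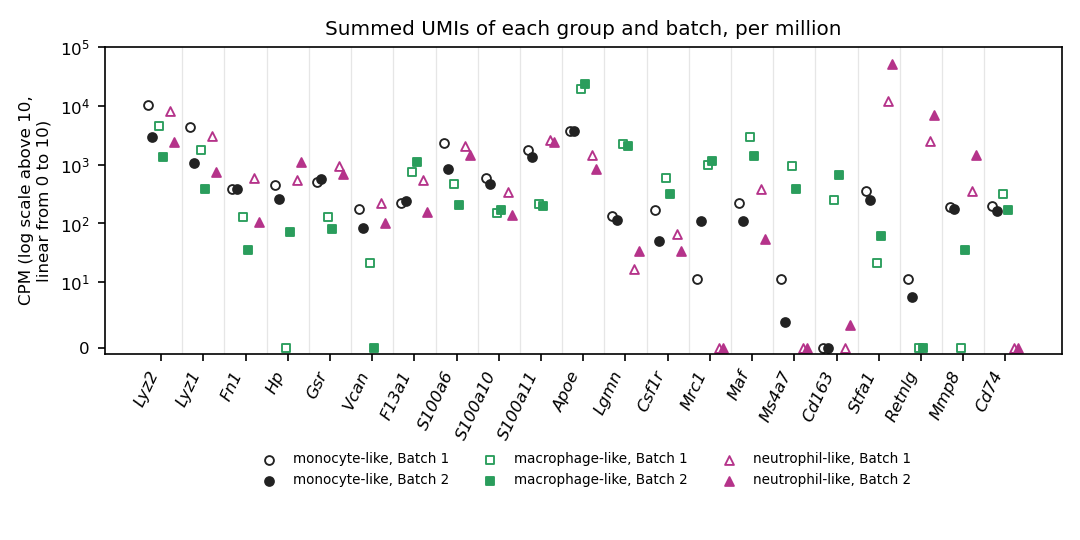
Summed UMIs of each gene (CPM, log scale above 10 and linear below) of 21 genes in monocyte-like (circles), macrophage-like (squares) and neutrophil-like cells (triangles), open for Batch 1 and filled for Batch 2. S100a11 was at 1799 and 1345 CPM in the member sums and 212 and 196 in the macrophage sums, and Cd163 was at 0 in both member sums.

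The S100 genes S100a6, S100a10 and S100a11, which encode small calcium-binding proteins, were higher than in macrophages as well. In the list of S100, annexin and cytoskeletal genes 3 of 10 were called higher and none lower, with a median log2 fold change of 1.63. S100a11 was at 1799 and 1345 CPM in members and at 212 and 196 in macrophages (log2 fold change 3.10 ± 0.38, edgeR adjusted p = 8.76e-06). S100a6 was at 2302 and 849 CPM against 467 and 205 (2.46 ± 0.43, edgeR adjusted p = 0.00132). S100a10 was at 592 and 469 CPM against 149 and 170 (1.82 ± 0.40, edgeR adjusted p = 0.0125), and its call was lost without the batch term (adjusted p = 0.0901). In all 3 genes both member sums lay above both macrophage sums. Against the neutrophil-like cells described below, none of the 10 was called higher and 1 lower. Part of those cells held 2 or more rule UMIs. Without them, an alternative chosen after seeing the data, 4 of the 10 were called higher and 1 lower. Pooled over batches, S100a11, S100a6 and S100a10 were at 1462, 1223 and 501 CPM in members and 2434, 1574 and 174 in neutrophil-like cells. In myeloid cells under the same limits but with under 2 rule UMIs the list summed to 8043 and 6201 CPM. Members summed to 10637 and 6031 CPM. S100a11 UMIs were in 82.6% and 91.1% of members, 13.3% and 22.4% of macrophage-like cells, and 38.6% and 47.3% of endothelial cells. Thinned to 600 UMIs, the shares were 65.2% and 52.2% in members, 6.67% and 10.2% in macrophages and 17.0% and 16.2% in endothelium.

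Genes of the macrophage list were lower in members, beyond the C1q genes that split the groups. Of 16 tested in that list, 12 were lower and none higher, with a median log2 fold change of -3.25. Of the 12, 9 remained without the batch term. Without C1q the list summed to 5453 and 4953 CPM in members and 41981 and 36296 in macrophages. In myeloid cells under the same limits but with under 2 rule UMIs it summed to 12368 and 5266 CPM. In Batch 2 low levels were thus not particular to the members. Cd163, the hemoglobin-haptoglobin scavenger receptor, which was listed with the scavenging genes, had no UMI in 347519 UMIs of members and 12 and 75 UMIs in macrophages, which makes it at least 63.3-fold lower (against 3 counts over the group, edgeR adjusted p = 9.12e-05). Pf4, a chemokine of platelets and fetal macrophages, had 1 UMI in members and 740 in macrophages, a ratio of 1615 (exact 95% interval 289 to 63881, edgeR adjusted p = 8.07e-11). Both sums of macrophage-like cells held these genes and neither sum of members did beyond that 1 UMI. Ms4a7, a membrane protein of macrophages, had 2 UMIs against 87, a ratio of 94.9 (25.5 to 796, edgeR adjusted p = 6.13e-05). Stab1, a scavenger receptor of that second list, had 2 UMIs against 63 (68.8, interval 18.3 to 580, edgeR adjusted p = 9.61e-05). Slc40a1, the iron exporter ferroportin, had none against 20 UMIs, at least 14.6-fold lower (edgeR adjusted p = 0.0138, 0.0901 without the batch term). By the same bound Ccl12, Fcrls and Fcna were at least 36.4-fold, 32.7-fold and 22.6-fold lower, and Fcna lost its call without the batch term (adjusted p = 0.142).

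Other macrophage genes were present in members at reduced levels. Apoe, apolipoprotein E, was at 3676 and 3736 CPM in members and 19262 and 23404 in macrophages (log2 fold change -2.37 ± 0.28, edgeR adjusted p = 6.09e-06). It was still in 82.6% and 87.8% of members, against 6.69% and 11.6% of endothelial cells, and after thinning in 67.4% and 67.8% against 2.29% and 3.37%. Endothelial cells held 51.0 and 46.4 CPM of Apoe, so members stood between macrophages and endothelium. Mrc1, the mannose receptor CD206, was at 11.2 and 109 CPM in members and 976 and 1151 in macrophages (-3.72 ± 0.46, edgeR adjusted p = 2.14e-05). Lgmn, the lysosomal protease legumain, was at 134 and 112 CPM against 2270 and 2070 (-4.00 ± 0.42, edgeR adjusted p = 5.6e-07). Of the list of 27 lysosome, scavenging and lipid-handling genes, 11 were lower and none higher, with a median of -1.31, or 9 without the 6 members rich in Sftpc described below. Ctsb, cathepsin B, was at 413 and 252 CPM against 2355 and 1517 (-2.39 ± 0.33, edgeR adjusted p = 6.13e-05). Psap and Ctsz, other lysosomal genes, did not pass the test (log2 fold changes 0.58 and -0.54, adjusted p = 0.577 and 0.693).

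**Figure D3:**
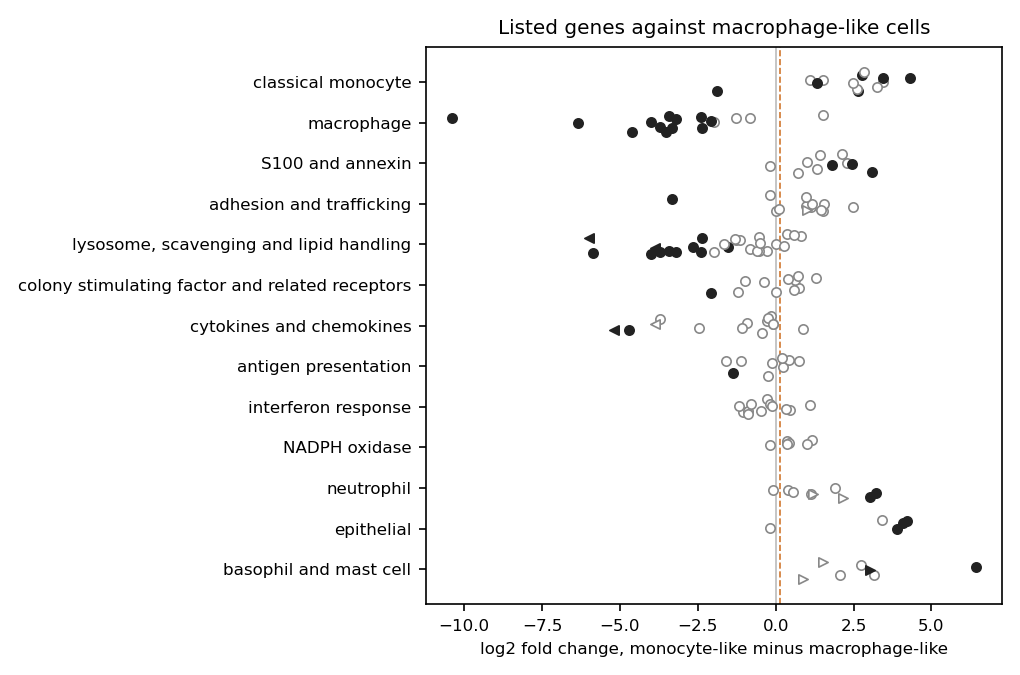
Log2 fold change of each tested gene, monocyte-like minus macrophage-like, by gene list (vertical position within a list is arbitrary). Filled symbols had an edgeR adjusted p under 0.05, triangles are lower bounds where a group had no UMI, and the dashed line is the median of all genes tested (0.15); 12 of 16 macrophage genes lie filled on the left.

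Among regulators, the transcription factor Maf, which helps maintain the macrophage state, was lower in members. Maf was at 224 and 109 CPM in members and 2927 and 1392 in macrophages (log2 fold change -3.53 ± 0.47, edgeR adjusted p = 3.21e-05). It kept its call without the batch term (adjusted p = 0.0463). Irf8 and Klf4, factors needed for monocytes to form, had log2 fold changes of -1.37 and 1.23 (adjusted p = 0.327 and 0.395).

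Of 11 receptors for colony stimulating factors and related cytokines, Csf1r was the one called. Csf1r, the receptor of the main macrophage growth factor, was at 168 and 50.4 CPM in members and 594 and 321 in macrophages (log2 fold change -2.08 ± 0.47, edgeR adjusted p = 0.0176, 0.245 without the batch term). Its UMIs were in 28.3% and 13.3% of members (10.9% and 3.33% after thinning) and 56.7% and 53.1% of macrophages (30.0% and 22.4%), against 0.382% and 0.401% of endothelial cells. Csf2rb, a chain of the GM-CSF receptor, was at 224 and 221 CPM in members and 170 and 152 in macrophages (0.63 ± 0.52, adjusted p = 0.693). Cx3cr1, a chemokine receptor of macrophages and patrolling monocytes, was at 145 and 3.88 CPM against 1294 and 134 (-3.31 ± 0.66, edgeR adjusted p = 0.0069), and lost its call without the batch term (adjusted p = 0.364). It was the single call among 9 genes of nonclassical monocytes and among 14 of adhesion and trafficking. Itgam, the CD11b integrin chain, was at 615 and 395 CPM against 679 and 384 (0.12 ± 0.33, adjusted p = 0.942).

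In the remaining functional lists few genes or none were called against macrophages. Antigen presentation had 1 of 9 lower, B2m of MHC class I, at 1777 and 1178 CPM in members and 3564 and 4729 in macrophages (log2 fold change -1.36 ± 0.305, edgeR adjusted p = 0.0159). Fc receptors had 1 of 9 lower, the inhibitory receptor Fcgr2b, at 134 and 198 CPM against 467 and 982 (-1.99 ± 0.455, edgeR adjusted p = 0.0199). Both calls were lost without the batch term (adjusted p = 0.166 and 0.323). Cytokines and chemokines had 2 of 14 lower, Ccl12 and the growth factor Igf1, which had 1 UMI in members and 14 in macrophages (edgeR adjusted p = 0.0371, 0.174 without the batch term). No gene was called among 12 of the interferon response, 6 of NADPH oxidase, 8 of microbe sensing, 12 of the cell cycle, 11 immediate early genes or 10 of glycolysis and hypoxia.

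The second comparison was with 150 neutrophil-like cells (33 and 117), which had 50 or more S100a8 and S100a9 UMIs per 10000. Called genes numbered 70 (1.01%), 11 higher in members (0.158%) and 59 lower (0.85%), with 786 at an unadjusted p under 0.05 and a median log2 fold change of -0.001 over all genes. Without the batch term, 4 and 24 genes were called. No limit on Ccr2, Ly6c2 and Plac8 applied to these cells, and 25 of 33 and 43 of 117 held 2 or more of their UMIs. In an alternative chosen after seeing the data, without those cells, 8 and 74 neutrophil-like cells remained, and 172 genes were higher and 127 lower in members.

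Genes of the neutrophil list set the groups apart. S100a8 and S100a9 split these groups, so differences in genes that accompany the 2 are not independent of the gates. Of 11 list genes tested beyond S100a8 and S100a9, 9 were lower in members and none higher. Their median log2 fold change was -5.90 over the 11 (-5.86 with genes at 0 at their bound). Cxcr2, Stfa1, Stfa2 and Stfa3 were among the 9. Retnlg, a resistin-like protein of neutrophils, had 3 UMIs in members and 2184 in neutrophil-like cells, a ratio of 720 (exact 95% interval 246 to 3495, edgeR adjusted p = 7.24e-12). Ngp, neutrophilic granule protein, had 1 UMI against 1864, a ratio of 1844 (331 to 72873, edgeR adjusted p = 8.98e-10). The genes of the granule proteins Camp and Ltf were under the filter on low counts and not tested. They had no UMI in members, and in neutrophil-like cells Camp had 2 UMIs in Batch 1 and 2435 in Batch 2, and Ltf 0 and 444, so that their difference rested on the mouse of Batch 2. Mmp9, gelatinase B, and Asprv1, an aspartic protease, had none against 120 and 114, at least 39.6-fold and 37.6-fold lower (edgeR adjusted p = 4.39e-05 and 4.27e-05). The same bound was at least 12.9-fold for Gm5689, 9.56-fold for Retnlb and 8.90-fold for Cd300lb, and these 3 genes lost their calls without the batch term (adjusted p = 0.0575, 0.213 and 0.174). Stfa2, a stefin of a family of near-identical copies, had 9 UMIs in members and 6405 in neutrophil-like cells (log2 fold change -9.35, edgeR adjusted p = 2.61e-11), and reads of its copies cannot be told apart here with certainty.

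Members nevertheless held some neutrophil transcripts at levels above those of macrophages. Against macrophage-like cells 2 of 11 neutrophil genes were higher. Mmp8, collagenase 2, was at 190 and 178 CPM in members, 0 and 35.7 in macrophages, and 354 and 1431 in neutrophil-like cells. It was higher than in macrophages (log2 fold change 3.22 ± 0.82, edgeR adjusted p = 0.0446, 0.0744 with size factors) and lower than in neutrophil-like cells (-2.62 ± 0.485, edgeR adjusted p = 0.00269, 0.097 without the batch term). Stfa1 was at 358 and 248 CPM in members, 21.2 and 62.5 in macrophages, and 11984 and 52113 in neutrophil-like cells (against macrophages 3.04 ± 0.71, edgeR adjusted p = 0.0214). Both genes thus stood between the other groups in each batch. Without the batch term neither passed against macrophages (adjusted p = 0.301 and 0.30), and without the 6 members rich in Mcpt8 described below neither did (0.0534 and 0.149). Summed over the 15 neutrophil markers the rule did not use, members held 950 and 1267 CPM, macrophages 170 and 455, endothelium 59.3 and 98.7, and neutrophil-like cells 20912 and 112913. The part of free neutrophil RNA in these values was not tested.

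S100a8 and S100a9, which encode the chains of calprotectin and lie at chr3:90668978-90670035 and chr3:90692632-90695721 (mm10), were used by the rule, which cut members at a sum under 50 per 10000 and took neutrophil-like cells above it, so their ratio is description only. Members had 52 UMIs of S100a8 and 1 of S100a9 in Batch 1, and 192 and 14 in Batch 2, ratios of 52.0, which rests on 1 UMI of S100a9, and 13.7. Neutrophil-like cells had ratios of 1.47 and 0.899, and endothelial cells, which should lack both genes, 1.17 and 1.09. Among otherwise passing cells with 50 to 100 of these UMIs per 10000 it was 62.0 in Batch 1 and 4.45 in Batch 2, and among those with 100 or more, 3.00 and 0.934. S100a8 was in 39.1% and 60.0% of members (28.3% and 28.9% after thinning), against 4.40% and 9.62% of endothelial cells (1.91% and 1.92%).

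Of the 11 genes higher in members than in neutrophil-like cells, Mcpt8 and Prss34 are basophil genes and are described below. In the lists, 2 of 16 macrophage genes (Apoe and Mrc1), 2 of 9 of antigen presentation (Cd74 and H2-Aa), 3 of 27 of the lysosome (Apoe, Mrc1 and Ctss) and 2 of 14 cytokines (Ccl3 and Ccl4) were higher. Slc40a1 of the lysosome list was called lower, with no UMI in members and 19 in neutrophil-like cells, at least 6.27-fold. These counts changed without the neutrophil-like cells that held 2 or more rule UMIs. The lysosome list then had 8 higher and 1 lower, and the cytokines 3 higher and 2 lower. The macrophage list had 3 higher and antigen presentation 1, with none lower. Ctss, cathepsin S, was at 1821 and 2504 CPM in members and 658 and 562 in neutrophil-like cells (log2 fold change 1.55 ± 0.34, edgeR adjusted p = 0.0161). Clec4n, the fungal sugar receptor dectin-2, was at 179 and 267 CPM against 16.9 and 10.3 (3.99 ± 0.66, edgeR adjusted p = 0.000652). Clec4a3, a lectin, was at 380 and 256 CPM against 84.4 and 47.9 (2.05 ± 0.49, edgeR adjusted p = 0.035, 0.05 with size factors). For these genes both member sums lay above both sums of the other group. Apoe was at 3676 and 3736 CPM against 1468 and 832 (1.50 ± 0.28, edgeR adjusted p = 0.00278). Mrc1 had 29 UMIs in members and none in neutrophil-like cells, at least 9.77-fold higher (edgeR adjusted p = 0.0209), and 28 of the 29 were in Batch 2, all in cells with Ccr2 as sole rule gene. Cd74 and H2-Aa of MHC class II had 60 and 27 UMIs against none, at least 20.2-fold and 9.10-fold higher (edgeR adjusted p = 0.000325 and 0.0497). Few cells carried them: 1 cell of Batch 1 held 13 and 1 cell of Batch 2 held 28 of the Cd74 UMIs, and 1 cell of Batch 1 held 4 and 1 cell of Batch 2 held 15 of the H2-Aa UMIs. Clec4n, Apoe and Cd74 kept their calls without the batch term (adjusted p = 0.0138, 0.0461 and 0.0349), and Ctss, Clec4a3, Mrc1 and H2-Aa did not (0.245, 0.174, 0.108 and 0.169). The chemokines Ccl3 and Ccl4 were at 279 and 516 CPM and at 156 and 593 CPM in members, against 16.9 and 61.6 and 16.9 and 37.7 (log2 fold changes 2.81 and 3.40, edgeR adjusted p = 0.0123 and 7.26e-05). Neither was called without the batch term (adjusted p = 0.431 and 0.213).

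Of the classical monocyte list, Chi3l3 and Ifitm6 were lower in members than in neutrophil-like cells and no other of 13 was called. The median log2 fold change of the 13 genes was -0.56, and 5 were positive. Pooled over both batches, Hp and Gsr were at 308 and 558 CPM in members and at 1005 and 726 in neutrophil-like cells. Lyz2 and Fn1 were at 4875 and 388.5 CPM in members, against 3419 and 188. Ifitm6 was at 391 and 93.0 CPM in members and 608 and 1555 in neutrophil-like cells (edgeR adjusted p = 0.0444, 0.0724 without the members rich in Sftpc), and Chi3l3, the chitinase-like protein Ym1, at 168 and 89.1 against 304 and 1065 (edgeR adjusted p = 0.00469). Anxa1, annexin A1, was at 391 and 333 CPM against 574 and 2510 (-2.36 ± 0.56, edgeR adjusted p = 0.0305, 0.0552 without the same members). In Ifitm6, Chi3l3 and Anxa1 the gap was mostly that of Batch 2. None of the 3 was called without the batch term (edgeR adjusted p = 0.418, 0.132 and 0.353). Hmgb2, a chromatin protein of dividing cells, was at 648 and 1004 CPM in members and 1992 and 2168 in neutrophil-like cells (-1.63 ± 0.33, edgeR adjusted p = 0.008, 0.492 without the batch term), the only call among 12 genes of the cell cycle.

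Most Sftpc transcripts and those of basophils were concentrated in few members, whereas erythroid transcripts were spread over nearly all of them. At least 2 UMIs of the erythroid list were in 46 of 46 and 89 of 90 members, and of the epithelial list in 13 and 65, against 31.9% and 75.9% of endothelial cells for the epithelial list. Surfactant protein C, Sftpc, which is made by alveolar type 2 cells, was at 3944 and 9209 CPM in members and 297 and 634 in macrophages (log2 fold change 3.90 ± 0.68, edgeR adjusted p = 0.00112). Of 2729 Sftpc UMIs, 2515 (92.2%) lay in 6 members with 100 or more, 2 in Batch 1 and 4 in Batch 2, and the highest other member had 5 and 10. Those 6 cells had medians of 3306 and 10994 UMIs in all, above the members' medians in each batch, and 11 of the 12 Epcam UMIs of Batch 2. They carried both myeloid and epithelial transcripts, and no doublet caller was run. They also held 56 of 61 UMIs of S100g and 37 of 43 of Cxcl15 in Batch 2, genes at least 11.1-fold and 9.16-fold higher in members than in macrophages. Without these 6 cells Sftpc had a log2 fold change of 0.56 (edgeR adjusted p = 0.826), and Sftpa1, Sftpb, S100g, Cxcl15 and the sodium pump gene Atp1b1 were not called (adjusted p = 0.963, 0.973, 0.548, 0.627 and 0.63). No gene of the epithelial list was then called, in place of 3 of 5.

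**Figure D4:**
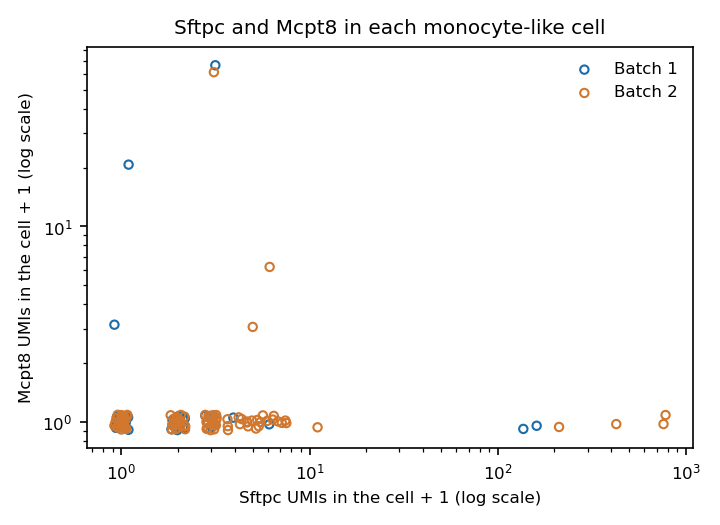
UMIs of Sftpc (horizontal) and Mcpt8 (vertical), each plus 1 on a log scale with points spread slightly at random, in each of the 136 monocyte-like cells by batch. The 6 cells rich in Sftpc at the right and the 6 cells with 2 or more Mcpt8 UMIs at the top were different cells.

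A further 6 members, 3 in each batch, held all 147 UMIs of Mcpt8, a protease of basophils, with 81 in Batch 1 and 66 in Batch 2. They also held 15 of 17 and 34 of 37 UMIs of Hdc, which makes histamine, all 6 and 31 of the basophil protease Prss34, and 11 of 16 and 27 of 33 of the factor Gata2. Lyz2, by contrast, had 6 UMIs in the 3 cells of Batch 1 and 1 in the 3 of Batch 2. These cells went against the label, since they passed the rule but carried basophil genes and little Lyz2. Mcpt8 in all members was 67.3 times its level in macrophages (147 UMIs against 1, exact 95% interval 11.9 to 2678, edgeR adjusted p = 0.000766) and at least 49.5-fold that in neutrophil-like cells (edgeR adjusted p = 6.86e-05). Hdc was at least 8.25-fold and Csf1, the macrophage growth factor, at least 4.89-fold higher than in macrophages (edgeR adjusted p = 0.00714 and 0.0427), with 9 of 12 and 20 of 20 Csf1 UMIs in these cells. Without the batch term Hdc kept its call and Csf1 did not (adjusted p = 0.0463 and 0.161). They held 19 of 25 and 47 of 133 UMIs of Ccl3, which was not called against neutrophil-like cells without them (log2 fold change 1.88, edgeR adjusted p = 0.204). Ccl4 was still called without them (2.37, edgeR adjusted p = 0.023), and so was Cd74 (edgeR adjusted p = 0.000354), while H2-Aa was not (0.0578). Of 7 basophil and mast cell genes tested against macrophages, 2 were called with these cells and none without. Both sets of 6 cells were chosen after their values were seen. In the list of 18 dendritic cell genes, 8 were tested and none was called against macrophages. Against neutrophil-like cells Cd74 and H2-Aa of this list were called higher, as given above. At least 2 UMIs of the list were in 32.6% and 16.7% of members. The shares were 26.7% and 18.4% in macrophage-like cells and 6.31% and 8.34% in endothelial cells. Among the untested or low genes, Cd209a was at 0 in members, and Flt3 had 11.2 and 7.75 CPM.

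Other genes with the largest differences from macrophages were spread differently. Hipk1, a protein kinase, had 7 and 18 UMIs in members and none in macrophages, at least 3.82-fold higher (edgeR adjusted p = 0.0262), and was also called without either set of 6 cells (0.0287 and 0.036). The gene 1100001G20Rik had 6 and 53 UMIs against none, at least 9.01-fold higher, called with the batch term and not without it, and 83 and 1215 UMIs in neutrophil-like cells. Ly6c1 was at 235 and 124 CPM in members and 21.2 and 8.92 in macrophages (log2 fold change 3.85 ± 0.81, edgeR adjusted p = 0.00908). Since Ly6c1 shares sequence with the rule gene Ly6c2, its difference is not independent of how members were chosen.

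The Ccr2-alone members of Batch 2 differed from the 38 members of the same lung with Ly6c2 or Plac8 in several genes. This division was made after seeing the data, lies within 1 mouse, and is described without a test. Of the 4 members of Batch 2 rich in Sftpc, 3 had Ccr2 alone and held 33749 of the 147255 UMIs of that set. The epithelial list summed to 15979 CPM in Ccr2-alone members and 5760 in the others, and its part in the values that follow was not tested. Some genes were close between the 2 sets. Lyz2 was at 3008 CPM in Ccr2-alone members and 2862 in the others, S100a11 at 1433 and 1228, and Apoe at 3850 and 3584. The macrophage list without C1q summed to 5114 CPM in Ccr2-alone members and 4740 in the others. Of the rule genes, Ccr2 by itself placed the 52 Ccr2-alone cells under the monocyte-like label.

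**Figure D5:**
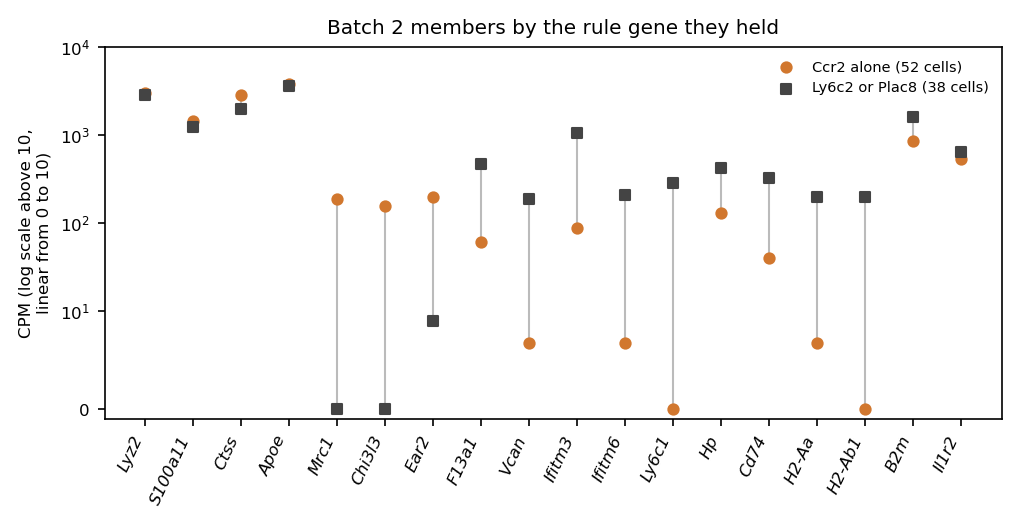
Summed UMIs of each gene (CPM, log scale above 10 and linear below) of 18 genes in Batch 2 members with Ccr2 as sole rule gene (orange circles, 52 cells) and with Ly6c2 or Plac8 (dark squares, 38 cells), joined by a line per gene. Mrc1 and Chi3l3 were at 0 CPM in the second set, and Ly6c1 and H2-Ab1 at 0 in the first.

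The 13 genes of the classical monocyte list beyond the rule set did not move as one. They summed to 5833 CPM in Ccr2-alone members and 7286 in the others, with 8 lower and 5 higher in the Ccr2-alone members. Among those lower, F13a1 was at 61.1 CPM, with a UMI in 13.5% of cells, against 470 CPM and 44.7% in the members with Ly6c2 or Plac8. Vcan had 1 UMI in 52 cells against 21 in 38 cells, and Hp was at 129 and 424 CPM. The interferon-induced membrane proteins Ifitm3 and Ifitm6 were at 88.3 and 6.79 CPM against 1047 and 208. Ly6c1 had no UMI against 32 in 16 cells, but it shares sequence with Ly6c2, whose absence defined the set. Without the members rich in Sftpc, Vcan was at 0 and 206 CPM.

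Among the 5 list genes that were higher, Chi3l3 had 23 UMIs in 6 Ccr2-alone cells against none, Gsr was at 659 against 460 CPM and Mgst1, a glutathione transferase of membranes, at 217 against 117 CPM. Outside the list, Mrc1 had 28 UMIs in 18 of the 52 Ccr2-alone cells and none in the 38 others, where 3 counts of 110766 UMIs would be the limit that a count of 0 allows, and it was at 238 and 0 CPM without the members rich in Sftpc. Ear2, a ribonuclease gene of the nonclassical monocyte list, had 29 UMIs in 18 cells against 1, and Clec4n was at 374 against 126 CPM. After thinning to 600 UMIs, Mrc1 and Ear2 were each in 15.4% of Ccr2-alone members and in none of the others. The MHC class II genes went the other way but rested on few cells. H2-Ab1 had no UMI in the Ccr2-alone members and 22 in 3 of the others, and Cd74 had 6 against 36 UMIs, of which 28 were in 1 cell.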

How the data were processed

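Whole lungs of 2 mice at postnatal day 1 were measured by Drop-seq, 1 mouse in each batch, and the batch given in the labels was taken as the replicate. The authors deposited a table of UMI counts per gene and cell barcode for each batch. Per the labels and the study's methods, reads were aligned to mm10 with Bowtie2 2.2.7 and unique UMIs per gene and barcode were counted with Drop-seq tools. Whether the counting used strand is not given in the sources used here. Each barcode held at least 500 genes, and cells with over 10% mitochondrial UMIs were then removed, which left 8003 of 9944.

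The members and the gene lists were chosen with earlier results of these data known. Counts were summed per cell group and batch into 16 sums of 8 groups (monocyte-like, macrophage-like, neutrophil-like, B, T and NK, epithelial, endothelial and mesenchymal), each with at least 5 cells, and fitted together so that the groups shared 1 estimate of the spread (7 residual degrees of freedom). The lowest sum held 35085 UMIs and the highest 5625329. After edgeR's filter on low counts 6971 genes were fitted, and the 6942 that no gate used were tested with the quasi-likelihood test of edgeR 4.0.16 in R 4.3.3 (TMM normalization, group and batch as terms, trended dispersion), with Benjamini-Hochberg adjustment over all fitted genes and a threshold of 0.05. The script was tested on simulated data with known changes. Sums of one batch come from the same mouse and are paired by it. Across the 28 pairs of groups the deviations from group means of sums of the same batch had a median correlation of 0.17 (0.0668 to 0.504).

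Log2 fold changes are given with their SE. Where a group had no UMI, the fold is a bound computed against 3 counts over the group, and with 1 to 3 UMIs it is the ratio of depth-scaled counts with its exact 95% interval. Besides the listed genes, genes were eligible to be named if among the 8 largest called changes of a comparison and direction, at 50 CPM or more in each batch of the group with the higher level, and alike in direction in each batch. Some listed genes are not reported here. List symbols were found for 330 of 332, 4 of them by an older name. Shares of cells with a UMI were recomputed with each cell thinned to 600 UMIs. No doublet caller was run, and a filter on markers of other cell types was an alternative. Other alternatives were DESeq2 1.42.0, its size factors, no filter on low counts, no batch term, a fit of the immune groups alone, other limits of the rule, and leaving out sets of cells. Python 3.11.15, numpy 2.4.6, pandas 2.3.3 and scipy 1.17.1 were used.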

Additional observations from a re-analysis of the deposited data

Results flagged for a closer look

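In Batch 2, 64 cells met every other limit of the rule but had more than 10% mitochondrial UMIs (of 1940 such cells), and no comparison used them. They drew attention because they carried the members' rule genes in data that the filter removes. Their mitochondrial share had a median of 13.6% (10.0 to 27.8%) and their depth a median of 1833 UMIs. Ccr2 was at 1574 CPM, Ly6c2 at 68.1 and Plac8 at 198, and Ccr2 was the sole rule gene in 53 (82.8%). Lyz2 was at 3039 CPM, S100a11 at 1165, Apoe at 3257, Mrc1 at 266, Vcan at 74.9 and S100a8 at 824 CPM. Batch 1 held no such cell. Whether these cells were damaged members was not tested.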

How the results depend on the processing

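Both comparisons rest on 2 sums per group from 1 mouse each. The p-values measure the spread left after the group and batch terms over all 16 sums of 8 groups. This is not the spread between the sums of the 2 compared groups alone. Leaving out a replicate leaves 1 sum per group and no residual degrees of freedom, hence values with no test, and the number of members then ranged from 46 to 90 and their share from 1.60% to 1.93%. Single-batch values were differences in log2 CPM with a prior count of 2, rescaled within that batch, and not fitted fold changes. This change of estimate can itself move genes with few or no UMIs, and how far it did was not tested. Of 49 named fold changes, 16 moved by more than their SE without the first batch and 31 without the second. Of these fold changes, where the gene passed the filter, 28 lost their call without the batch block, 24 at a mitochondrial limit of 5%, 14 of 42 with thinned cells, 12 of 45 with DESeq2, 7 with at least 3 rule UMIs, 6 under a filter on markers of other cell types, 4 with no C1q UMI allowed, 4 of 48 with the immune groups alone and 3 with size factors, and none reversed in these. Leaving out the members rich in Sftpc lost 10 calls and leaving out those with Mcpt8 lost 5 and reversed 1. Without the batch block the counts of genes higher and lower were 13 and 18 against macrophage-like cells, in place of 40 and 46, and 4 and 24 against neutrophil-like cells, in place of 11 and 59.

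Against macrophage-like cells the count of higher genes was 70 with no filter on low counts, 17 at a mitochondrial limit of 5% and 15 with cells thinned to 600 UMIs, where 4211 and 1282 genes passed the filter. That of lower genes was 72 with the DESeq2 Wald test, 15 at the limit of 5% and 26 thinned. Against neutrophil-like cells higher genes numbered 37 with DESeq2, 25 with no filter, 7 without the members with Mcpt8 and 172 without the neutrophil-like cells with monocyte UMIs. Lower genes numbered 102 with no filter, 28 at the limit of 5%, 27 thinned and 127 without those neutrophil-like cells. The cause of these shifts was not tested. Mcpt8 itself turned to a log2 fold change of -5.66 against macrophage-like cells (edgeR adjusted p = 0.64) once the members holding it were left out, by construction.

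Members numbered 70 at a mitochondrial limit of 5%, and their share was 2.01% with no such limit and 1.24% with at least 3 rule UMIs. Thinning to 600 UMIs moved the share of members with Lyz2 to 73.3% in Batch 2, with S100a11 to 65.2% and 52.2%, and with Csf1r to 10.9% and 3.33%.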

Other observations

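Some immune genes differed between the members of the 2 mice and were called in neither comparison. Il1r2, the decoy receptor of interleukin 1, was at 11.2 CPM in Batch 1 members (1 UMI) and 578 in Batch 2, where 45 of 90 cells held it. It was also low in Batch 1 and higher in Batch 2 in macrophage-like cells (0 and 268 CPM) and neutrophil-like cells (118 and 856 CPM). Il1b, interleukin 1 beta, was at 55.9 and 454 CPM in members and 16.9 and 805 in neutrophil-like cells, and Cd14, a co-receptor for bacterial lipopolysaccharide, at 212 and 620 CPM in members and 233 and 1222 in macrophages. With 1 mouse in each batch, animal, preparation and sequencing cannot be told apart.

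Top2a, a topoisomerase of dividing cells, was at 11.2 and 93.0 CPM in members. In Batch 2 it had 4 UMIs in 3 of the 52 Ccr2-alone members and 20 UMIs in 7 of the 38 others, of which 10 were in 1 cell.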
